A study of Mus musculus with 15 samples.

Results

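FXRα2 is the splice form of the bile acid receptor FXR that has the shorter N-terminus and lacks the 4-residue MYTG insert beside the DNA-binding domain. Its effect on gene expression was read by setting the 3 FXRα2 arrays against the 3 GFP arrays, which are 6 of the 15 arrays in the series. The other 9 arrays hold 3 each of FXRα1 (short N-terminus with the insert), FXRα3 (longer N-terminus with the insert) and FXRα4 (longer N-terminus without it). The comparison covers 18820 genes, each represented by the probe set that has a single annotated symbol and the highest mean over the 15 arrays.

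Both groups were primary hepatocytes that had been isolated from male C57BL/6J mice by collagenase perfusion and plated on collagen. The FXRα2 group received an adenovirus that carries the human FXRα2 form and, from its own CMV promoter, GFP. The control group received an adenovirus with GFP alone, so virus and GFP are common to both groups, as is the endogenous mouse receptor. After overnight transduction the cells of both groups were kept in medium without dexamethasone and insulin, and RNA was taken 36 h after transduction. No FXR ligand and no animal age is named in the labels. The labels do not say whether the 3 arrays of a group came from separate animals or cultures, so the p-values measure how these samples spread, and that spread may be technical only.

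FXR works as a partner of RXR on inverted repeats of the sequence AGGTCA, and in liver it is known for restraining bile acid synthesis, raising bile acid export and shaping lipid and glucose handling. The insert lies next to the zinc fingers, and the forms without it have been reported to bind a wider range of DNA sites than the forms with it. The study's stated aim was to find the gene programme of each isoform, and its title places FXRα2 in hepatic lipolysis and fatty acid metabolism.

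The values are log2 levels, so a difference of 1 is a 2-fold change. Across genes, which are not independent replicates, the FXRα2 arrays correlated with each other at r from 0.997 to 0.999, and with GFP arrays at r from 0.985 to 0.988. The probe set for Nr1h4 reads the mouse receptor gene and does not check the human transgene, and no probe set for the human form was used here. Nr1h4 stood at 7.16, 7.11 and 7.04 in the FXRα2 arrays and 6.94, 6.94 and 7.03 in the GFP arrays, a difference of 0.14 ± 0.074 (SE) that did not pass (adjusted p = 0.175). Albumin (Alb), the main plasma protein of hepatocytes, was near the top of the scale in both groups at 13.08, 13.13 and 13.08 with FXRα2 and 13.1, 13.05 and 13.05 with GFP. Of 13 hepatocyte markers 6 rose and 1 fell (1 and 4 with each array centred on its median), and their summed linear level was 37391 to 39933 with FXRα2 against 35333 to 37398 with GFP. Over all 18820 genes 17.5% rose and 16.7% fell, and with median centring 1889 rose and 11273 fell. Those shares are the ones to set beside the marker counts here and below.

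In bulk RNA fewer cells of a type and less RNA per cell cannot be told apart. The 13 lymphocyte and neutrophil markers had no call, with a summed linear level of 148 to 155 against 153 to 163. Of 15 Kupffer cell and macrophage markers 1 rose and 1 fell (1057 to 1119 against 1014 to 1105), and of 15 stellate cell and fibroblast markers 1 rose and 0 fell (422 to 435 against 426 to 440). Both Kupffer cell counts went to 0 without FXRα2 replicate 1, the rise also when any of FXRα2 replicates 2 and 3 and GFP replicate 1 was left out, and the fall when GFP replicate 2 or 3 was. Of 15 sinusoidal endothelial markers 2 rose and 1 fell, and the sum was 664 to 788 against 467 to 489, with Bmp2 the member that moved most. Single arrays decided 1 of those rises, since 1 was left without FXRα2 replicate 1, FXRα2 replicate 3, GFP replicate 1 or GFP replicate 2. Of 11 cholangiocyte markers 4 rose and 1 fell (4482 to 4925 against 3601 to 3805), with Epcam higher and Krt19 lower. With median centring 10 lymphocyte, 8 Kupffer cell, 11 stellate cell, 6 endothelial and 7 cholangiocyte markers fell. That setting also called 11273 of all 18820 genes lower, so these counts do not single out the markers. The part of other cell types in the results was not tested.

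FXRα2 changed about 1 in 3 of the genes, with large rises far more frequent than large falls. At an adjusted p under 0.05, called here a rise or a fall, 6448 of 18820 genes passed (34.3%), of which 3298 rose (17.5% of genes) and 3150 fell (16.7%). The split depends on the scale, since 51.1% of the called genes rose on the deposited values and 14.4% with each array centred on its median, which moves the median gene from -0.048 to -0.269. Other scalings moved it less, to 44.6% with quantile normalization, 49.7% with 75th percentile centring and 43.0% with centring on the brighter genes. By at least 2-fold on the deposited values, 521 genes rose (2.77%) and 74 fell (0.393%). At 4-fold or more, a log2 difference of 2, 98 genes rose and 3 fell, and 19 genes rose by a log2 difference of at least 3 while 0 fell by as much. Over all genes 8656 (46.0%) had arrays of the 2 groups that did not overlap.

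The genes that rose at least 2-fold were at or near the level of the typical gene in the control, and those that fell as much were brighter. The median of the 521 was 5.55 with GFP and 7.27 with FXRα2, against a median GFP level of 5.62 over all genes, and 317 of the 521 had a GFP mean under 6. The 74 that fell had a median of 8.22 with GFP and 6.99 with FXRα2. Genes near the bottom of the scale have little room to fall 2-fold, so the levels of rises and falls are not on equal terms. Among the 9410 genes dimmer with GFP, 269 rose and 6 fell by 2-fold or more. Among the 9410 brighter ones the counts were 252 and 68. Among the 1882 brightest genes, with a GFP mean of at least 9.85, 399 rose and 601 fell, but 2 rose and 10 fell by 2-fold or more.

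**Figure D1:**
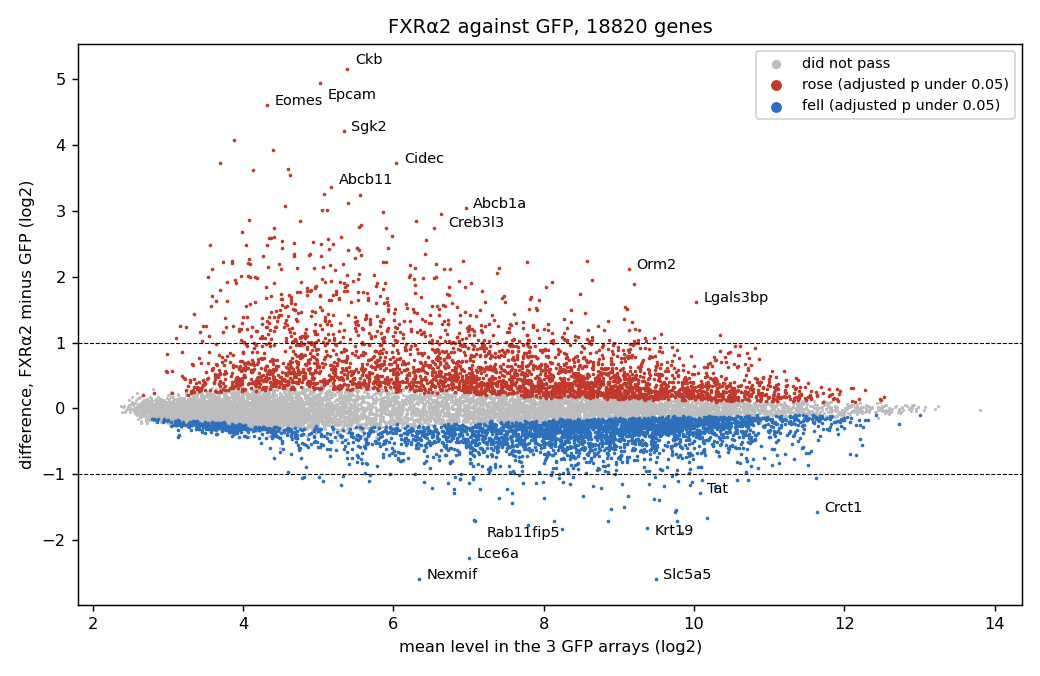
Each point is 1 of 18820 genes, with the mean of the 3 GFP arrays on the x axis (log2) and the difference FXRα2 minus GFP on the y axis (log2); red genes rose and blue genes fell at an adjusted p under 0.05, and dashed lines mark 2-fold. The 521 genes above the upper line lie mostly at GFP levels under 6 and reach 5.15 for Ckb, while the lowest points are Nexmif and Slc5a5.

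The largest rise of all belonged to Ckb, the cytosolic brain-type creatine kinase, which buffers ATP with phosphocreatine. Ckb was 10.53, 10.24 and 10.86 in the FXRα2 arrays and 4.91, 5.7 and 5.57 in the GFP arrays. The groups were far apart, with a rise of 5.15 ± 0.20 (SE), or 35.5-fold (limma, adjusted p = 1.15e-14). Epcam, an adhesion molecule of simple epithelia and of bile duct and progenitor cells in liver, went from 5.05, 4.91 and 5.1 to 9.8, 9.93 and 10.18, a rise of 4.95 ± 0.098 (adjusted p = 2.68e-19). Sgk2, a kinase related to the glucocorticoid-induced Sgk1, went from 5.36, 5.29 and 5.35 to 9.51, 9.52 and 9.61. In each of these genes the lowest FXRα2 array lay more than 3 log2 units above the highest GFP array.

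Several of the next genes are developmental transcription factors or surface proteins that have little known role in hepatocytes. Eomes, a T-box factor of early embryo and lymphocytes, was 4.3, 4.1 and 4.55 with GFP and 8.82, 8.81 and 9.17 with FXRα2. Zic2, a zinc finger factor of the developing nervous system, was 3.93, 3.92 and 3.81 with GFP and 7.86, 7.9 and 8.16 with FXRα2. Lhx2, a LIM homeobox factor, was 5.81, 5.8 and 5.98 with GFP and 8.73, 8.62 and 9.18 with FXRα2. The 3 factors rose by 4.61, 4.09 and 2.98. Mme, which encodes the peptide-cleaving membrane enzyme neprilysin, rose by 3.92 ± 0.11 from 4.38, 4.31 and 4.51 to 8.35, 8.28 and 8.33. Cacna1b, a neuronal calcium channel subunit, rose by 3.62, Chrm4, a muscarinic acetylcholine receptor, by 2.79, and Hapln4, a link protein of the hyaluronan matrix, by 2.62. Their GFP levels, 4.13, 5.57 and 5.98, were at or below about 6.

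Other members of the 30 largest rises act in transport and metabolism. Abcb1a, the drug exporter P-glycoprotein, rose by 3.04 ± 0.072 from 6.98, 6.85 and 7.05 to 9.92, 10 and 10.08. Slc16a3, the lactate and proton exporter MCT4, rose by 2.85 ± 0.11 from 6.23, 6.16 and 6.5 to 9.11, 9.11 and 9.23. Flvcr2, a plasma membrane transporter of the FLVCR family, rose by 3.26, and Slc25a35, a mitochondrial carrier, by 3.08. Carns1, which makes carnosine, rose by 2.74, and Efhd1, a calcium-binding mitochondrial protein, by 3.74. Ripk3, the kinase of necroptosis, went from 5.31, 5.68 and 5.65 to 8.21, 8.26 and 8.46, a rise of 2.76 ± 0.14 (adjusted p = 5.81e-13).

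The largest falls included transporters, receptors and structural proteins. Slc5a5, the sodium-iodide symporter, was 9.33, 9.44 and 9.71 with GFP and 6.84, 6.74 and 7.11 with FXRα2, a fall of 2.59 ± 0.11 (adjusted p = 6.12e-14). Nexmif, a neuronal protein of X-linked intellectual disability, fell by 2.60 ± 0.15 from 6.49, 6.28 and 6.27 to 3.58, 3.77 and 3.89, close to the bottom of the scale. Lce6a and Crct1, which lie in the epidermal differentiation gene cluster, fell by 2.27 and 1.57. Crct1 was bright in both groups, at 11.71, 11.54 and 11.64 with GFP and 10.12, 10.03 and 10.03 with FXRα2. Tinagl1, a matrix protein, fell by 1.89 ± 0.062 from 9.69, 9.92 and 9.92 to 7.98, 7.86 and 8.04. The groups did not overlap in these genes, which was a condition of their choice and not a result.

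Falls among genes of hormone and nutrient signalling reached 2-fold or more. Avpr1a, the vasopressin receptor of hepatocytes, fell by 1.72 ± 0.10, from 9.74, 9.78 and 9.81 to 8.18, 8.08 and 7.91. Dio3, which inactivates thyroid hormone, fell by 1.57 ± 0.050, from 9.73, 9.79 and 9.74 to 8.19, 8.14 and 8.21. Tat, the tyrosine aminotransferase induced by glucocorticoids, fell by 1.28 ± 0.073, from 10.02, 10.14 and 10.07 to 8.9, 8.89 and 8.6. Nox4, an NADPH oxidase, fell by 1.33 and Arrdc4, an arrestin-domain protein of glucose-responsive expression, by 1.33. Rbl1, the pocket protein p107, fell by 1.72 in the probe set kept, whereas a dimmer probe set of the gene rose by 0.38 (limma, adjusted p = 0.024). The direction of Rbl1 thus depends on the probe set.

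**Figure D2:**
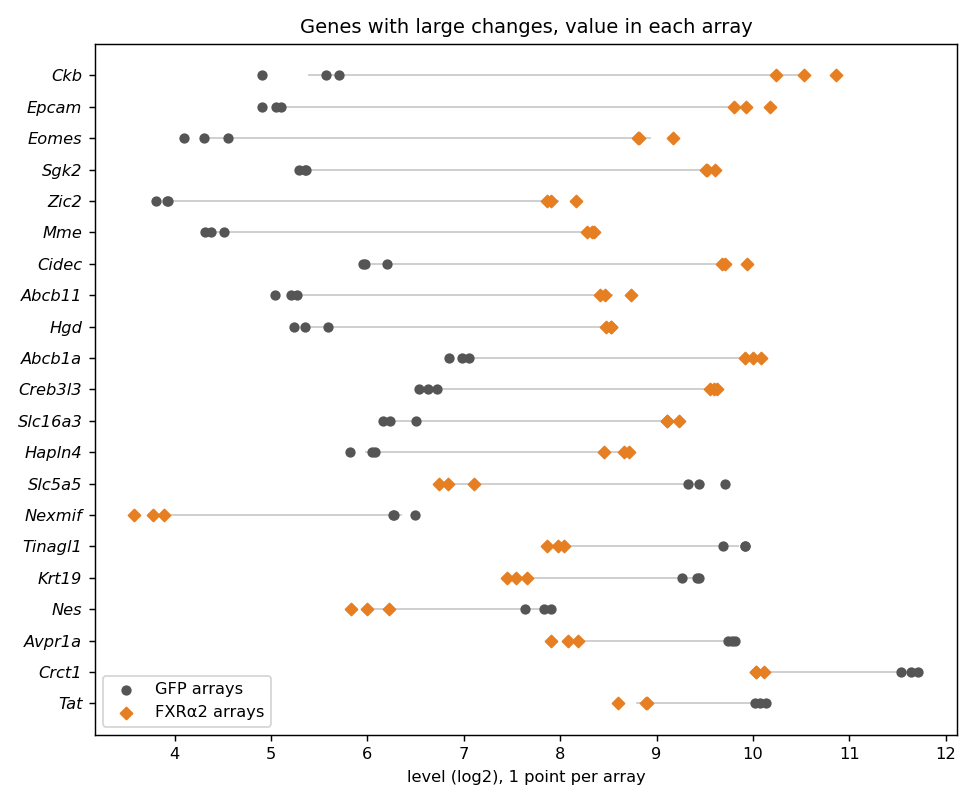
The level (log2, x axis) of 21 genes in each GFP array (grey circles) and each FXRα2 array (orange diamonds), with a line joining the group means. The FXRα2 arrays of Ckb lie between 10.24 and 10.86 and its GFP arrays between 4.91 and 5.70. In none of the 21 genes do the groups overlap, which was a condition of choice for those named as largest changes.

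Genes already abundant in hepatocytes moved less, and the rises among them included secreted proteins and enzymes. Lgals3bp, a secreted galectin-binding glycoprotein, rose by 1.62 ± 0.073 from 10.12, 10.03 and 9.92 to 11.68, 11.6 and 11.65. Dhrs1, a short-chain dehydrogenase, rose by 1.11 ± 0.050, from 10.25, 10.36 and 10.41 to 11.36, 11.49 and 11.5. Those were the 2 of the 1882 brightest genes that rose 2-fold. Gsto1, a glutathione transferase of the omega class, rose by 0.95, and Ero1a, the oxidase that drives disulfide formation in the endoplasmic reticulum, by 0.84. Among the falls, Fam171b fell by 1.67, the adhesion protein gene Nectin2 by 1.20, the small GTPase gene Rras2 by 1.06 and Umps, which makes UMP, by 0.89.

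Of 29 measured genes in the list of known FXR targets, 21 rose and 3 fell (15 and 4 with arrays centred on their medians), against 17.5% and 16.7% over all genes. The median difference of the list was 0.437, against -0.048 over all genes. The shares of 17.5% and 16.7% are the ones to set beside the counts of every list. For counts with median centring the measure is 1889 genes higher and 11273 lower of 18820. The list was chosen with results of these data known and is not independent evidence of its direction. Abcb11, the bile salt export pump and a classical FXR target, was 5.27, 5.04 and 5.21 with GFP and 8.46, 8.41 and 8.73 with FXRα2. Its rise of 3.36 ± 0.13 (adjusted p = 6.22e-15) was the largest of the list. Pdk4, the kinase that shuts pyruvate dehydrogenase, followed with 2.18 ± 0.12, from 6.29, 6.31 and 6.05 to 8.26, 8.35 and 8.6. The fibrinogen chain gene Fga rose by 1.06, Hmox1, the heme oxygenase, by 0.99 and Apoc2, the cofactor of lipoprotein lipase, by 0.93. Osgin1, a growth inhibitor induced by oxidative stress, went the other way, from 10.85, 10.83 and 10.86 to 9.95, 9.86 and 10.04, a fall of 0.90.

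Genes of bile acid synthesis and conjugation rose more often than they fell on the deposited values, but not with median centring. Cyp8b1, the sterol 12-alpha-hydroxylase that FXR is known to repress through SHP, was higher with FXRα2, at 7.38, 7.21 and 7.35 against 5.71, 5.59 and 5.67, a rise of 1.65 ± 0.11. The sodium-taurocholate uptake carrier gene Slc10a1 also rose, by 1.07 ± 0.12, from 5.98, 5.74 and 5.83 to 7.15, 6.68 and 6.92. Nr0b2, which encodes SHP and was named after its values were seen, rose by 0.40 ± 0.13 from 4.75, 4.6 and 4.61 to 4.94, 5.34 and 4.88 (adjusted p = 0.0154). The rise did not pass when FXRα2 replicate 2 was left out (0.26, adjusted p = 0.132), nor with GFP replicate 2 left out (0.37, adjusted p = 0.0555) or its replicate 3 (0.38, adjusted p = 0.0524), nor with median centring (0.18, adjusted p = 0.274) or centring on the brighter genes (0.36, adjusted p = 0.0542). Of 17 measured genes of bile acid synthesis and conjugation 6 rose and 2 fell (4 and 8 with median centring), with a median of 0.043. The count of falls rests on single arrays: 0 were left without FXRα2 replicate 3 or GFP replicate 2, and 1 without FXRα2 replicate 1, GFP replicate 1 or GFP replicate 3.

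Of 24 hepatobiliary transporters 9 rose and 5 fell (7 and 10 with median centring). Abcb4, the phosphatidylcholine floppase of the bile canaliculus, rose by 0.86 ± 0.067 from 8.59, 8.41 and 8.48 to 9.48, 9.36 and 9.22. Atp8b1, the flippase that keeps the canalicular membrane stable, rose by 0.76 and Slc51b, a subunit of the basolateral bile acid exporter OST, by 0.76. Abcc6 rose by 1.14, while Abcc4, the basolateral exporter MRP4, fell by 0.99 ± 0.065, from 9.94, 9.94 and 9.93 to 8.83, 8.92 and 9.1. The main basolateral pump Abcc3 stood at 10.64, 10.68 and 10.69 with FXRα2 and 10.58, 10.64 and 10.57 with GFP and did not pass (adjusted p = 0.188).

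Promoter sequences are shown for 4 genes that rose and carry a match, exact or near, to 1 of 2 arrangements of the AGGTCA unit. The arrangements are the inverted repeat IR-1 (AGGTCANTGACCT), the textbook FXR element, and the everted repeat ER-2 (TGACCTNNAGGTCA), reported for forms without the insert. Both read the same on either strand, so 1 search covers both strands, and each contains the single unit. The windows run from 250 bases before to 50 bases after the gene's start, from RefSeq on GRCm38.p6, and 14749 of the 18820 genes had at least 1 (18155 windows). The match is in capitals. Abcb11 has 1 window, Igfals 3, and Mospd3 and Cidec 2 each, and the window of closest match is shown. The start named for each gene is that of the window shown. Abcb11 has an IR-1 with 1 mismatch that starts 63 bases before the gene's start (window chr2:69342567-69342866, minus strand). Igfals, which encodes the acid-labile carrier subunit of IGF complexes, has an exact ER-2 starting 13 bases before it (chr17:24877981-24878280, plus strand). Mospd3 has an exact ER-2 at 190 bases before its start (chr5:137600659-137600958, minus strand), and Cidec an ER-2 with 2 mismatches at 129 bases before (chr6:113434715-113435014, minus strand). 
Abcb11: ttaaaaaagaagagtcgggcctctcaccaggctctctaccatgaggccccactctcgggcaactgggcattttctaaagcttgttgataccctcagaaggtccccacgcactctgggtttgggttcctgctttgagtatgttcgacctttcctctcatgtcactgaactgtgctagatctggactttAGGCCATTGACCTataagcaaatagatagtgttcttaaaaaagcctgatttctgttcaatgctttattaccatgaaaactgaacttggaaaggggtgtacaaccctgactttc
Igfals: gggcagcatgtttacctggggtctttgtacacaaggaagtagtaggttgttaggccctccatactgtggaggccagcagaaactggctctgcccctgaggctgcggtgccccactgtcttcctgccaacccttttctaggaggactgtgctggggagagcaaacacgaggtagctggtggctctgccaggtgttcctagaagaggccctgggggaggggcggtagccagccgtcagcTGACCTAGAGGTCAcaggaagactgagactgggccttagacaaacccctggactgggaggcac
Mospd3: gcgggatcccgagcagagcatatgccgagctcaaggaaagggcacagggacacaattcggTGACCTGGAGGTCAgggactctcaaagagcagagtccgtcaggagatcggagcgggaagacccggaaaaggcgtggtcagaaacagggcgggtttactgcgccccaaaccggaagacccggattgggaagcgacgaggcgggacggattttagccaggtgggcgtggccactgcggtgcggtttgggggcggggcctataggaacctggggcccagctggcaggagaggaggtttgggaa
Cidec: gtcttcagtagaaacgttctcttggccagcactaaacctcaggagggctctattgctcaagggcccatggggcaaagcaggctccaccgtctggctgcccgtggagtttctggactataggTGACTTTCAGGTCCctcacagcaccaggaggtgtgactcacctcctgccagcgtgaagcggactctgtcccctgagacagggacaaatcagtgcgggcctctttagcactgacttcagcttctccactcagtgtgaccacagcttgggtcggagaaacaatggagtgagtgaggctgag

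Igfals and Mospd3 hold the 2 exact ER-2 matches in all 18155 windows, and both genes rose. Igfals was 7.97, 7.85 and 8.0 with FXRα2 and 7.31, 7.39 and 7.27 with GFP, a rise of 0.61 ± 0.075, and Mospd3, a membrane protein with a motile sperm domain, was 7.84, 7.82 and 8.05 with FXRα2 and 6.92, 7.01 and 6.91 with GFP, a rise of 0.95 ± 0.094. Both were named for the motif after values were seen. Among all 18155 windows, 3548 belong to genes that rose, 3251 to genes that fell and 11356 to genes that did not pass. With up to 1 mismatch, ER-2 was found in 12 windows. Of these, 6 belong to genes that rose, 0 to genes that fell and 6 to genes that did not pass. Counts this small beside those totals do not show a link between motif and change. For IR-1 the 2 exact matches belong to genes that did not pass. With up to 1 mismatch IR-1 was in 15 windows, of which 4 belong to genes that rose, 0 to genes that fell and 11 to genes that did not pass. Beside Abcb11 the genes that rose in that set were Saa4, Rarg and Steap3, named for the motif, and Rarg no longer passed with median centring (0.11, adjusted p = 0.217). With up to 2 mismatches, ER-2 was in 1.29% of all windows, 1.49% of those of genes that rose, 1.02% of those that fell, 1.95% of those of genes that rose at least 2-fold and 0 of 63 windows of genes that fell at least 2-fold. For IR-1 the same shares were 1.09%, 0.986%, 0.831% and 1.24%, and 2 of the 63 windows (3.17%). The single unit AGGTCA, on either strand, was in 14.3% of all windows, 15.2% of those of genes that rose and 12.3% of those that fell. These are letter matches in a short window and not binding sites.

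Lipid droplet genes changed most in the CIDE family. Cidec, which fuses lipid droplets and is abundant in fat and fatty liver, was 5.95, 5.98 and 6.2 with GFP and 9.68, 9.71 and 9.94 with FXRα2, a rise of 3.73 ± 0.099 (adjusted p = 2.28e-17). Cidea and Cideb, the other members of the family, rose by 1.70 ± 0.10 and 0.94 ± 0.057. Cideb, the member that hepatocytes use for lipoprotein loading, started high and went from 10.42, 10.62 and 10.6 to 11.45, 11.56 and 11.46. Of 16 measured droplet proteins 7 rose and 3 fell (5 and 6 with median centring), with the coat protein gene Plin3 up by 0.70 and Rab18 down by 0.42. The coat protein gene Plin5 was at a difference of 0.13 and did not pass (adjusted p = 0.412).

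Several lipases of the cytosol, the vessel wall and the endoplasmic reticulum rose. Pnpla2, the first lipase of triglyceride breakdown (ATGL), was 9.24, 9.39 and 9.47 with GFP and 10.31, 10.4 and 10.49 with FXRα2, a rise of 1.03 ± 0.067. Its coactivator Abhd5 (CGI-58) rose by 0.92 ± 0.048, from 9.38, 9.34 and 9.34 to 10.3, 10.18 and 10.33. Lipe, the hormone-sensitive lipase, rose by 0.99 ± 0.11, from 6.49, 6.52 and 6.54 to 7.47, 7.39 and 7.65, and a dimmer probe set of the gene rose by 0.38. The secreted endothelial lipase gene Lipg rose by 2.48 ± 0.15 and the carboxylesterase gene Ces1g by 1.37 ± 0.11. Of 21 measured lipases and regulators 10 rose and 2 fell (6 and 8 with median centring, and 4 falls with quantile normalization), with a median of 0.059. Lpl, lipoprotein lipase, was the largest fall of the list, 0.41, from 4.61, 4.52 and 4.8 to 4.19, 4.11 and 4.4. With any of FXRα2 replicates 1 and 2 and GFP replicate 3 left out it did not pass (adjusted p = 0.0722, 0.101 and 0.123) and 1 fall was left in the list.

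Adipocyte markers share Cidec, Cidea and Lipe with these lists. Of 13 adipocyte markers 5 rose and 1 fell, and 2 fell without GFP replicate 1. Their summed linear level was 1701 to 1919 with FXRα2 against 889 to 951 with GFP, with Cidec the member that moved most. The mean log2 level of Cidec was 9.78 with FXRα2 and 6.04 with GFP, and 7 of the 13 markers did not pass. Pparg, the adipogenic receptor, fell by 0.72 ± 0.065, from 8.35, 8.29 and 8.4 to 7.66, 7.65 and 7.58, and Plin1, the droplet coat of fat cells, was at 4.76, 4.81 and 4.61 with FXRα2 and 4.55, 4.93 and 4.65 with GFP, with a difference of 0.014 (adjusted p = 0.949). The part of adipocytes in the result was not tested.

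**Figure D3:**
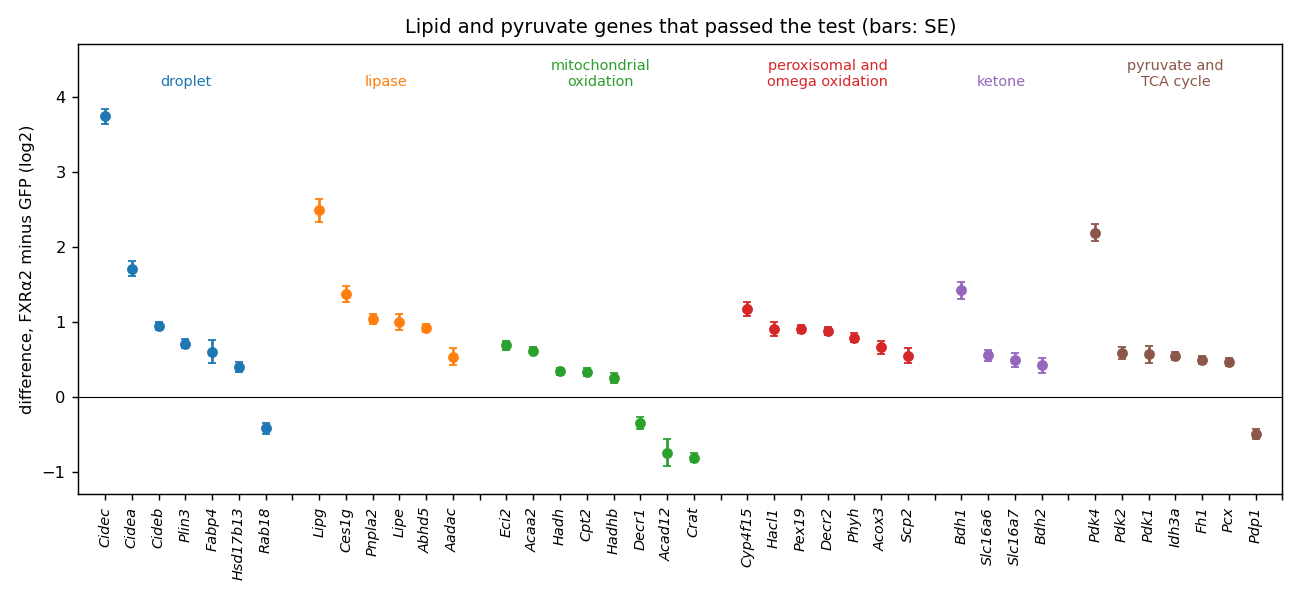
Difference FXRα2 minus GFP (log2, y axis) with its SE for genes of lipid and pyruvate metabolism that passed the test with all 6 arrays and with any 1 of them left out, taken from the 8 largest changes of each list. Cidec stands highest at 3.73, Lipg at 2.48 and Pdk4 at 2.18 follow, and the members of the oxidation lists lie between -0.81 for Crat and 1.17 for Cyp4f15; with median centring Hadh, Hadhb, Hsd17b13 and Bdh2 no longer passed, and a dim second probe set of Acox3 stood at 0.004.

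Fatty acid oxidation changed by smaller steps than the droplet genes. Of 23 measured genes of mitochondrial oxidation 10 rose and 4 fell (3 and 12 with median centring, and 8 falls with quantile normalization), with a median of 0.061. Acaa2, the last thiolase step, rose by 0.61 ± 0.046 from 10.74, 10.72 and 10.7 to 11.3, 11.4 and 11.31. Eci2, an isomerase for unsaturated chains, rose by 0.68 and Cpt2, the inner carnitine transferase, by 0.33. Crat, which moves acetyl groups onto carnitine, fell by 0.81 ± 0.062, from 8.92, 8.99 and 8.96 to 8.18, 8.17 and 8.09. Of 21 genes of peroxisomal and omega oxidation 12 rose and 1 fell (7 and 3 with median centring), with a median of 0.249. The single fall was not called without FXRα2 replicate 3, GFP replicate 2 or GFP replicate 3. Decr2, which reduces unsaturated chains in peroxisomes, rose by 0.88, Phyh, the phytanic acid hydroxylase, by 0.79 and Hacl1, the lyase for hydroxylated acids, by 0.90.

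Slc27a1, a fatty acid transport protein, was 6.41, 6.21 and 6.08 with GFP and 7.34, 7.33 and 7.55 with FXRα2, a rise of 1.17 ± 0.10. The thioesterase genes parted, with Acot12 up by 0.68 ± 0.052 from 9.59, 9.56 and 9.51 to 10.27, 10.26 and 10.18 and Acot13 down by 0.68 ± 0.061 from 9.98, 10 and 9.88 to 9.24, 9.26 and 9.33. Of 22 genes of fatty acid uptake, binding and activation 5 rose and 5 fell (2 and 9 with median centring), which is near the 17.5% and 16.7% over all genes. The falls numbered 2 without FXRα2 replicate 2, and 3 without FXRα2 replicate 1, GFP replicate 2 or GFP replicate 3. Respiratory chain genes had 7 of 34 up and 6 down (3 and 24 with median centring), also near those shares, with Gabpa, a factor that drives their transcription, up by 0.60 ± 0.056 and Nrf1, another such factor, down by 0.54 ± 0.090.

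Ketone body and pyruvate genes moved with Bdh1 and Pdk4 at their head. Bdh1, the mitochondrial 3-hydroxybutyrate dehydrogenase, was 5.37, 5.42 and 5.4 with GFP and 6.86, 6.96 and 6.64 with FXRα2, a rise of 1.42 ± 0.11. Of 7 measured ketone body genes 4 rose and 1 fell (3 and 2 with median centring). The fall, of Acat1 by 0.16, was not called when any of FXRα2 replicates 2 and 3 and GFP replicates 1 and 3 was left out (adjusted p = 0.122, 0.121, 0.0793 and 0.131), which leaves 0 falls. Of 25 genes of pyruvate use and the TCA cycle 10 rose and 3 fell (6 and 12 with median centring, and 5 falls with quantile normalization). Besides Pdk4, the kinase genes Pdk2 and Pdk1 rose by 0.58 and 0.56, and the opposing phosphatase gene Pdp1 fell by 0.50. Pcx, pyruvate carboxylase, rose by 0.46 from 8.64, 8.72 and 8.7 to 9.18, 9.09 and 9.18.

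Lipid synthesis genes changed in both directions. Of 24 genes of fatty acid synthesis, elongation and desaturation 10 rose and 2 fell (5 and 11 with median centring, and 4 falls with quantile normalization). Fasn, fatty acid synthase, rose by 0.28 ± 0.049 from 9.99, 9.93 and 9.97 to 10.21, 10.2 and 10.32, but by 0.056 with median centring (adjusted p = 0.311), and the elongases Elovl6 and Elovl2 rose by 0.42 and 0.55. Elovl6 has an ER-2 with 1 mismatch in a promoter window. Elovl7 fell by 0.78 ± 0.041, from 10.76, 10.8 and 10.81 to 10, 9.99 and 10.04. Of 24 genes of triglyceride and phospholipid synthesis 10 rose and 7 fell (6 and 13 with median centring). Within this list the phosphatidic acid phosphatase genes parted, with Lpin1 down by 1.00 ± 0.068 from 8.84, 8.99 and 9.04 to 7.95, 7.89 and 8.02 and Lpin3 up by 1.20 ± 0.10 from 6.2, 6.49 and 6.39 to 7.46, 7.51 and 7.71. The phospholipid branch enzymes Pcyt2, Pcyt1a and Pemt rose by 1.14, 0.85 and 0.73. Mboat1, which reacylates lysophospholipids, fell by 1.84 ± 0.12, from 8.29, 8.23 and 8.19 to 6.43, 6.13 and 6.65.

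Cholesterol synthesis genes were mixed, and lipoprotein genes mostly rose. Of 22 genes of cholesterol synthesis and uptake 9 rose and 6 fell (4 and 8 with median centring). Hmgcs1, the entry synthase of the mevalonate pathway, rose by 0.77 ± 0.052, while Lss, lanosterol synthase, fell by 0.44 ± 0.058. Of 25 genes of apolipoproteins and lipoprotein metabolism 20 rose and 2 fell (11 and 4 with median centring), with a median of 0.385. The falls numbered 1 with any of FXRα2 replicates 1 and 2 and GFP replicate 3 left out. Apom, the carrier of sphingosine phosphate on HDL, was 8.42, 8.45 and 8.38 with GFP and 9.56, 9.41 and 9.39 with FXRα2, a rise of 1.04 ± 0.068. Lcat, which esterifies plasma cholesterol, rose by 0.94 and Apoa5, an activator of triglyceride clearance, by 0.74. Of the lipase inhibitors, Angptl8 rose by 0.62 ± 0.094 from 8.47, 8.47 and 8.59 to 9.08, 9.03 and 9.29, and Angptl4 fell by 0.58 ± 0.068 from 9.67, 9.83 and 9.6 to 9.14, 9.09 and 9.15. Apoe, abundant in both groups at a mean of 12.84 with GFP, did not pass (adjusted p = 0.42).

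Of 43 measured genes of amino acid catabolism and the urea cycle 28 rose and 3 fell (17 and 8 with median centring), with a median of 0.302. Hgd, the homogentisate dioxygenase of tyrosine breakdown, was 5.59, 5.35 and 5.24 with GFP and 8.53, 8.53 and 8.48 with FXRα2, a rise of 3.12 ± 0.13. Uroc1, the urocanase of histidine breakdown, rose by 2.48 ± 0.14, from 4.25, 4.37 and 4.34 to 6.72, 6.82 and 6.86. Prodh, which starts proline oxidation, rose by 1.08, Aass, which starts lysine breakdown, by 1.05 and Gpt, alanine aminotransferase, by 0.97. Nags, which makes the activator of the urea cycle, rose by 1.12 ± 0.066 from 7.78, 7.75 and 7.8 to 8.88, 8.8 and 9.01. Tat, described above among the large falls, was the exception of size in the list, so in tyrosine breakdown the first enzyme fell and Hgd rose.

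Glucose and phosphocreatine genes added a few members of size. Gys2, liver glycogen synthase, rose by 1.21 ± 0.13 from 5.78, 5.45 and 5.58 to 6.9, 6.75 and 6.77, and Fbp1, a gluconeogenic phosphatase, by 0.48. Pklr, liver pyruvate kinase, fell by 0.65 ± 0.063 from 11.51, 11.58 and 11.58 to 10.99, 10.88 and 10.86. Of 27 glucose genes 12 rose and 3 fell (6 and 8 with median centring). Slc6a8, the creatine uptake carrier, rose by 1.65 ± 0.062 from 7.91, 7.95 and 7.97 to 9.62, 9.5 and 9.65, beside Ckb. In the list of creatine, folate, purine and polyamine genes 11 of 27 rose and 4 fell (8 and 12 with median centring). Nnmt, which methylates nicotinamide, fell by 0.49.

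Many genes of secreted plasma proteins rose. Of 26 acute phase genes 18 rose and 1 fell (9 and 6 with median centring), with a median of 0.294. Without FXRα2 replicate 3 there were 2 falls. Orm2 and Orm3, orosomucoids that carry drugs and lipids in plasma, were the largest, and Orm2 went from 9.26, 9.16 and 9.0 to 11.38, 11.29 and 11.08, a rise of 2.11 ± 0.072. Orm3 rose by 3.25 ± 0.11. The orosomucoids are close copies of each other, so their probe sets may share signal. Saa4, a constitutive serum amyloid protein, rose by 0.94, and Apcs, serum amyloid P, fell by 0.55. Of 32 complement and coagulation genes 17 rose and 2 fell (8 and 7 with median centring). The fibrinogen chain genes Fga, Fgb and Fgg rose by 1.06, 0.67 and 0.77, the plasmin inhibitor gene Serpinf2 by 1.04 and antithrombin (Serpinc1) by 0.64.

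Hjv, hemojuvelin, the BMP co-receptor that drives hepcidin, was 6.83, 6.35 and 6.52 with GFP and 8.82, 8.76 and 8.68 with FXRα2, a rise of 2.19 ± 0.14. Bmp6, the ligand that liver endothelium uses to signal iron load, fell by 1.54 ± 0.068, from 9.81, 9.75 and 9.74 to 8.21, 8.1 and 8.37. Hepcidin itself (Hamp) was dim and varied between arrays, at 5.2, 4.83 and 5.89 with FXRα2 and 4.4, 4.69 and 3.99 with GFP, a rise of 0.94 ± 0.22 (adjusted p = 0.00143). Dhrs3 and Dhrs9, which interconvert retinal and retinol, moved apart, up by 1.09 and down by 1.44. Of 29 genes of iron, heme and retinoid metabolism 10 rose and 5 fell (6 and 16 with median centring).

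Of 23 measured transcription factors of hepatocytes 12 rose and 3 fell (10 and 9 with median centring), with a median of 0.228. Creb3l3, the endoplasmic reticulum-bound factor CREBH that controls fasting lipid and acute phase genes, was 6.72, 6.53 and 6.63 with GFP and 9.6, 9.55 and 9.63 with FXRα2, a rise of 2.96 ± 0.069. Hnf4a, the central hepatocyte receptor, rose by 1.54 ± 0.053, from 9.01, 9.1 and 9.16 to 10.67, 10.61 and 10.59. Foxa1 rose by 1.49 ± 0.073, from 7.89, 7.89 and 7.95 to 9.3, 9.37 and 9.54. Cebpa, which restrains hepatocyte growth, rose by 0.79, and Sox9, which marks bile duct and progenitor cells, by 1.05. Cebpb was at 9.04, 9.02 and 9.29 with FXRα2 and 9.04, 9.15 and 9.14 with GFP (adjusted p = 0.99).

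Among nuclear receptors and coregulators 11 of 34 rose and 5 fell (7 and 17 with median centring). Without FXRα2 replicate 2 there were 3 falls, with quantile normalization 9, and among genes brighter than the median gene 7 rises. Nr1i2, the xenobiotic receptor PXR, was 6.29, 6.08 and 6.12 with GFP and 7.85, 7.62 and 7.76 with FXRα2, a rise of 1.58 ± 0.11. Ppara, the fasting regulator of fatty acid oxidation, rose by 0.71 ± 0.088, from 6.24, 6.43 and 6.39 to 7.11, 6.97 and 7.12. Rara, a retinoic acid receptor, rose by 0.61. The heterodimer partner Rxra was at 9.18, 8.94 and 9.17 with FXRα2 and 8.9, 8.92 and 8.97 with GFP and did not pass (adjusted p = 0.102), but it passed without FXRα2 replicate 2 (0.25, adjusted p = 0.0198).

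Drug metabolism and stress genes split. Of 37 cytochrome P450 and conjugation genes 12 rose and 4 fell (7 and 14 with median centring). Fmo5, a flavin monooxygenase, rose by 1.42 ± 0.098 from 7.42, 7.25 and 7.26 to 8.72, 8.72 and 8.75, and Cyp2b10, a target of the receptor CAR, fell by 0.55 ± 0.045 from 12.26, 12.22 and 12.21 to 11.72, 11.72 and 11.6. Of 29 genes of the NRF2 response 6 rose and 10 fell (5 and 20 with median centring). Within it Nqo1, a quinone reductase, rose by 1.23 ± 0.074, from 6.97, 6.99 and 6.97 to 8.15, 8.23 and 8.22, while Gsta3, a glutathione transferase, fell by 0.71 ± 0.041, from 11.11, 11.06 and 11.14 to 10.43, 10.39 and 10.36. Aox1, aldehyde oxidase, fell by 0.88.

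Genes of the p53 response fell more often than they rose, with 11 of 21 down and 4 up (15 and 3 with median centring) and a median of -0.102. Gadd45g fell by 0.74 ± 0.088, Pmaip1, the death factor NOXA, by 0.71 ± 0.097 and Tnfrsf10b, a death receptor, by 0.47 ± 0.047. Cdkn1a, the p21 inhibitor and a principal p53 target, was at 11.93, 11.95 and 11.92 with FXRα2 and 11.98, 11.98 and 12.03 with GFP and did not pass (adjusted p = 0.259). Of 26 genes of the amino acid response and ER stress 9 rose and 10 fell (6 and 17 with median centring). Atf3, a stress-induced factor, rose by 0.84 ± 0.060 from 10.58, 10.79 and 10.76 to 11.49, 11.43 and 11.72, and the chaperone gene Hspa5 (BiP) was at a difference of -0.058 and did not pass (adjusted p = 0.321).

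Counts of interferon-stimulated genes were close to the shares over all genes and moved with single arrays. Of 33 members 5 rose and 5 fell (4 and 15 with median centring), beside 17.5% and 16.7% of all genes, while without GFP replicate 1 8 rose and 3 fell, and without FXRα2 replicate 2 3 fell. Cxcl10, a chemokine for T cells, was 7.46, 7.63 and 7.32 with GFP and 9.29, 9.17 and 9.07 with FXRα2, a rise of 1.71 ± 0.10. Among inflammation genes and chemokines 7 of 27 rose (25.9%) and 4 fell (14.8%), not far from those shares, with a median of -0.003. With median centring 5 rose and 13 fell. Cxcl1 and Cxcl2, which draw neutrophils, rose by 1.28 ± 0.067 and 1.94 ± 0.087, and Il17d, an interleukin of the IL-17 family, by 3.65 ± 0.12, from 4.41, 4.61 and 4.78 to 8.19, 8.2 and 8.34. Tnfaip3, the NF-kappaB brake A20, fell by 0.83.

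Several immediate early genes rose and others fell. Egr1, a serum-induced factor, was 7.74, 7.95 and 7.73 with GFP and 9.25, 9.37 and 9.34 with FXRα2, a rise of 1.52 ± 0.091, and Egr2 and Fos rose by 2.10 and 1.34. Dusp4, a nuclear phosphatase of ERK, rose by 1.52 ± 0.088, while Spry1, an inhibitor of receptor signalling to ERK, fell by 0.53. Jun, Dusp1 and Myc, named for their direction, fell by 0.33, 0.42 and 0.18. Of 29 genes of MAPK feedback and the immediate early class 11 rose and 8 fell (7 and 14 with median centring).

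Cell cycle genes changed both ways, and the larger changes were mostly upward. Of 45 members 18 rose and 8 fell (15 and 17 with median centring), with a median of 0.257, and 10 rose and 1 fell by at least 2-fold. Cdc20, which activates the anaphase complex, was 4.96, 5.22 and 5.28 with GFP and 6.99, 7.27 and 7.74 with FXRα2, a rise of 2.18 ± 0.20. Rrm2, the regulated subunit of ribonucleotide reductase, rose by 1.67 ± 0.14, from 7.41, 7.41 and 7.52 to 8.98, 8.97 and 9.4. Plk1, a mitotic kinase, rose by 1.64, and E2f7 and E2f8, repressors of the E2F class, by 1.33 and 1.31. In these genes FXRα2 replicate 3 was the highest of the FXRα2 arrays, and the groups did not overlap. Set against FXRα4, 28 of the 45 were lower with FXRα2, beside 11.7% of all genes, and 3 were higher, beside 2251 of 18820.

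Junction and filament genes moved apart. Of 29 cell junction genes 18 rose and 5 fell (8 and 8 with median centring). Among genes brighter than the median gene 3 of them fell. Gjb2, connexin 26, was 9.11, 9.21 and 9.28 with GFP and 11, 11.12 and 11.18 with FXRα2, a rise of 1.90 ± 0.052. Cdh1, E-cadherin, rose by 0.71 ± 0.047, from 10.38, 10.39 and 10.32 to 11.14, 11.07 and 11.03, and Jup, plakoglobin, by 0.70. The tight junction genes Cldn9, Cldn6 and Ocln rose by 2.87, 1.62 and 0.77. Of 34 genes of intermediate filaments and cytoskeleton 4 rose and 12 fell (2 and 26 with median centring). Krt19, a keratin of bile duct cells, was 9.26, 9.44 and 9.42 with GFP and 7.45, 7.54 and 7.66 with FXRα2, a fall of 1.82 ± 0.090. Nes, nestin, fell by 1.77 ± 0.11, from 7.64, 7.9 and 7.83 to 6.0, 5.83 and 6.22, and Vim, vimentin, by 0.47 ± 0.037, from 12.17, 12.24 and 12.22 to 11.7, 11.77 and 11.73. The hepatocyte keratins Krt8 and Krt18 were at differences of -0.016 and 0.014 and did not pass (adjusted p = 0.726 and 0.757). Flnc, filamin C, rose by 2.74 ± 0.084.

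Several ligands of the BMP and activin families rose. Bmp2 was 5.22, 5.18 and 4.94 with GFP and 8.08, 8.0 and 8.32 with FXRα2, a rise of 3.02 ± 0.11. The hepatic activin chains Inhbc and Inhbe rose by 1.92 ± 0.098 and 1.19 ± 0.064. Bmp7 rose by 2.33 in the probe set kept, whereas a dim second probe set was at -0.052 and did not pass. Id3, an early target of BMP signalling, rose by 1.46 ± 0.090, from 6.36, 6.19 and 6.41 to 7.79, 7.7 and 7.83. Of 47 genes of the BMP, TGF-beta, IGF and related pathways 25 rose and 7 fell (19 and 19 with median centring), with a median of 0.277. The Wnt list had 13 of 29 up and 3 down (9 and 12 with median centring), and 6 up among genes brighter than the median gene. Wnt5a, a non-canonical ligand, rose by 1.78 ± 0.17, while Lrp5, a co-receptor of the canonical pathway, fell by 1.39 ± 0.069, from 9.57, 9.52 and 9.54 to 8.19, 8.02 and 8.23.

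Of 26 receptors for hormones and other signals 7 rose (26.9%) and 3 fell (11.5%), beside 17.5% and 16.7% over all genes, with a median of -0.036. The counts were 6 and 13 with median centring, and 4 rose among genes brighter than the median gene. Besides Avpr1a, Cnr1, a cannabinoid receptor, moved from 3.79, 3.8 and 3.99 to 5.05, 5.08 and 5.2, a rise of 1.25 ± 0.11, and P2ry2, a receptor for extracellular ATP and UTP, from 7.18, 7.25 and 7.19 to 8.17, 8.24 and 8.32, a rise of 1.04 ± 0.065. Lepr, the leptin receptor, rose by 0.96 ± 0.16 from a low level. The insulin receptor gene Insr was at 9.57, 9.66 and 9.61 with FXRα2 and 9.66, 9.56 and 9.66 with GFP and did not pass (adjusted p = 0.9), but it passed as lower with median centring (-0.23, adjusted p = 0.00187).

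**Figure D4:**
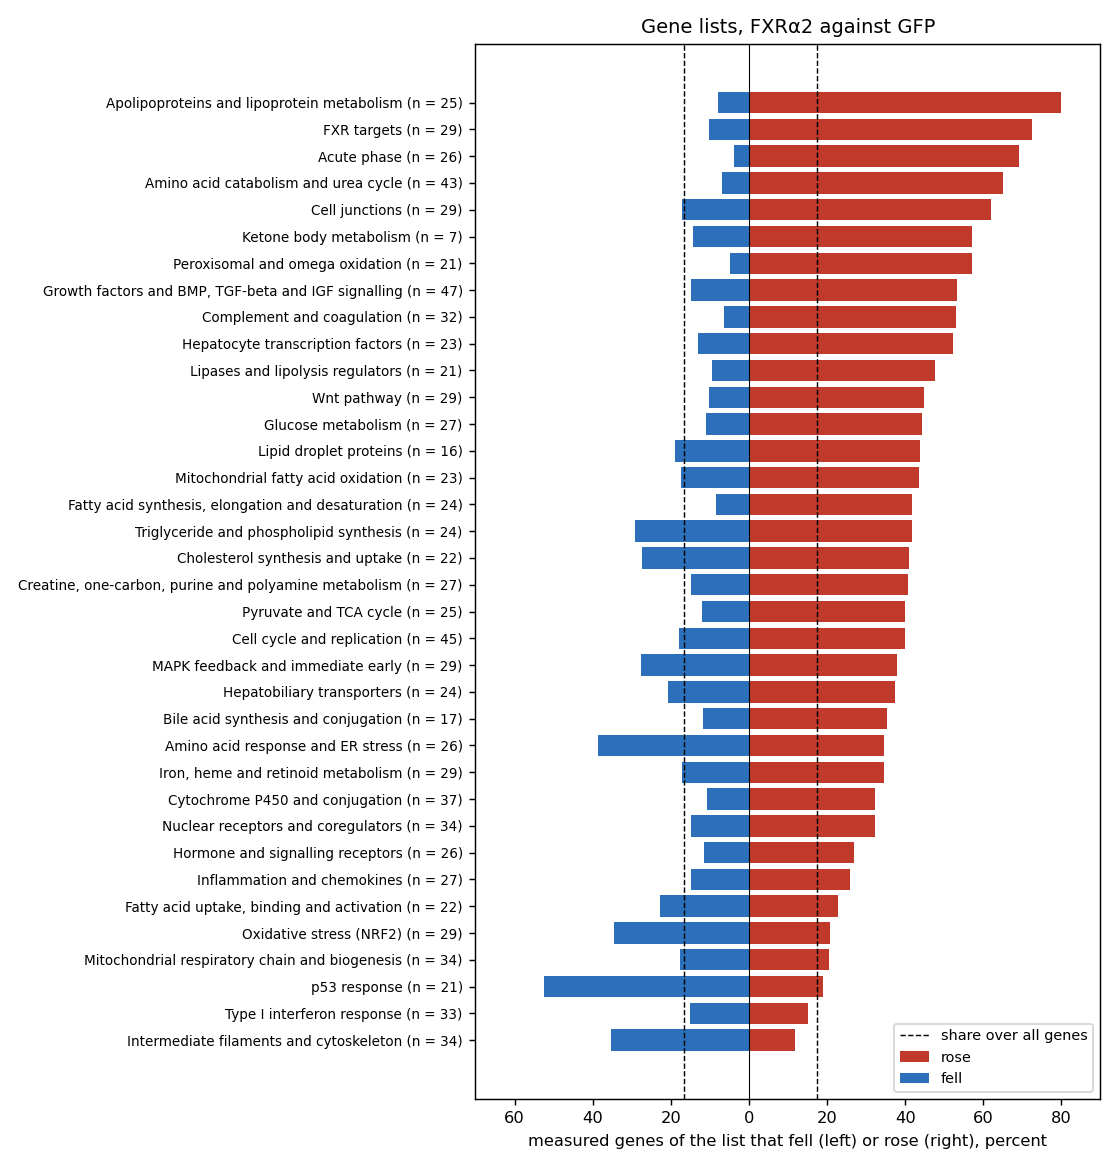
Percent of the measured genes of each of 36 lists that rose (red, right) or fell (blue, left) with FXRα2 against GFP at an adjusted p under 0.05, with n the number measured; dashed lines mark 17.5% and 16.7%, the shares over all genes. Apolipoproteins (20 of 25) and FXR targets (21 of 29) stand at the top, and the p53 response (11 of 21) has the widest bar to the left; with arrays centred on their medians more members fall in every list shown than on the deposited values.

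Setting FXRα2 against FXRα1, which has the same N-terminus and the insert, asks what comes with the lack of the insert, and setting it against FXRα4 asks what comes with the shorter N-terminus. The 3 comparisons share the FXRα2 arrays. The amount of the human form in each group was not read here, so isoform and amount cannot be told apart in these contrasts. Nr1h4, the mouse receptor gene, was 0.27 lower with FXRα2 than with FXRα4 (limma, adjusted p = 0.00894). Its difference of 0.092 from FXRα1 did not pass (adjusted p = 0.399). FXRα2 differed from FXRα1 in 5882 genes (31.3%), with 2657 higher (14.1%) and 3225 lower (17.1%), and from FXRα4 in 4456 (23.7%), with 2251 higher and 2205 lower. With median centring the counts against FXRα1 were 1834 higher and 6204 lower (22.8% higher in place of 45.2%), and the median difference moved from -0.041 to -0.157.

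Abcb11 was 0.35 above FXRα1 (95% confidence interval 0.09 to 0.61, adjusted p = 0.0371) and 1.49 above FXRα4 (adjusted p = 1.1e-08). Its differences from GFP, all against the same GFP arrays, were 3.01 with FXRα1, 0.49 with FXRα3 and 1.87 with FXRα4. Cidec was 3.36 above FXRα1 and 0.42 above FXRα4, and its differences from GFP were 0.38, 0.29 and 3.31. Epcam was 4.27 above FXRα1 and 0.27 above FXRα4, the latter at the edge of the threshold (adjusted p = 0.0496). Pnpla2 was 0.92 above FXRα1 (adjusted p = 4.45e-10), and its difference from FXRα4 did not pass (95% confidence interval -0.03 to 0.25, adjusted p = 0.28). Inhbc differed from FXRα1 by 0.18 (95% confidence interval -0.02 to 0.39, adjusted p = 0.172), which did not pass.

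A set of 964 genes (5.12%), counted over contrasts that share the FXRα2 arrays, was higher with FXRα2 than with GFP, FXRα1 and FXRα4, each at an adjusted p under 0.05, and 687 (3.65%) were lower than in all 3. Ckb led the first set, with a group mean of 10.54, beside 5.39 in the GFP group, 5.49 for FXRα1, 5.70 for FXRα3 and 8.02 for FXRα4. Ramp3, which modifies the receptors for calcitonin and adrenomedullin, was 6.04, 5.91 and 6.17 with FXRα2 and 3.47, 3.69 and 3.51 with GFP, and 2.52 above FXRα1 and 2.60 above FXRα4. Its means with FXRα1, FXRα3 and FXRα4 were 3.52, 3.41 and 3.44. St6galnac4, a sialyltransferase, was 7.95, 7.57 and 7.87 with FXRα2 and 5.3, 5.48 and 5.4 with GFP, and lay 2.19 above FXRα1 and 2.07 above FXRα4.

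Further members of this set were secreted or liver-expressed proteins. Rtp3, a receptor transporter protein of liver, was 8.12, 8.24 and 8.26 with FXRα2 and 6.24, 6.17 and 6.22 with GFP, 2.12 above FXRα1 and 2.03 above FXRα4. Rspo4, an R-spondin that enhances Wnt signalling, was 6.29, 6.38 and 7.11 with FXRα2 and 4.13, 4.37 and 4.31 with GFP, 2.27 above FXRα1 and 2.02 above FXRα4. Aldh1a2, which makes retinoic acid, was 1.97 above FXRα1 and 1.72 above FXRα4. Hgd and Uroc1, of the amino acid list, were 1.90 and 1.72 above FXRα4. The differences of Hgd from GFP were 1.08 with FXRα1, 0.21 with FXRα3 and 1.23 with FXRα4. Those of Uroc1 were 0.04, 0.07 and 0.76. FXRα3 was not part of the rule for this set.

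Among the genes lowest with FXRα2, Krt19 was 3.15 below FXRα1 and 0.89 below FXRα4, and its mean of 7.55 stood beside 9.37 in the GFP group, 10.70 for FXRα1, 11.13 for FXRα3 and 8.44 for FXRα4. Against GFP it thus rose with FXRα1 and FXRα3 and fell with FXRα2 and FXRα4. Zfp57, a zinc finger protein that keeps imprints, was 7.01, 7.13 and 7.29 with FXRα2 and 8.01, 8.15 and 8.17 with GFP, 1.09 below FXRα1 and 0.92 below FXRα4. Tgfb2, a TGF-beta ligand, was 8.16, 8.15 and 8.14 with FXRα2 and 8.9, 8.87 and 8.82 with GFP, 0.87 below FXRα1 and 0.70 below FXRα4. Dthd1, a death-domain protein, was 1.08 below FXRα1 and 1.18 below FXRα4, and Nupr1, a stress-induced chromatin protein, 0.75 and 0.72.

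**Figure D5:**
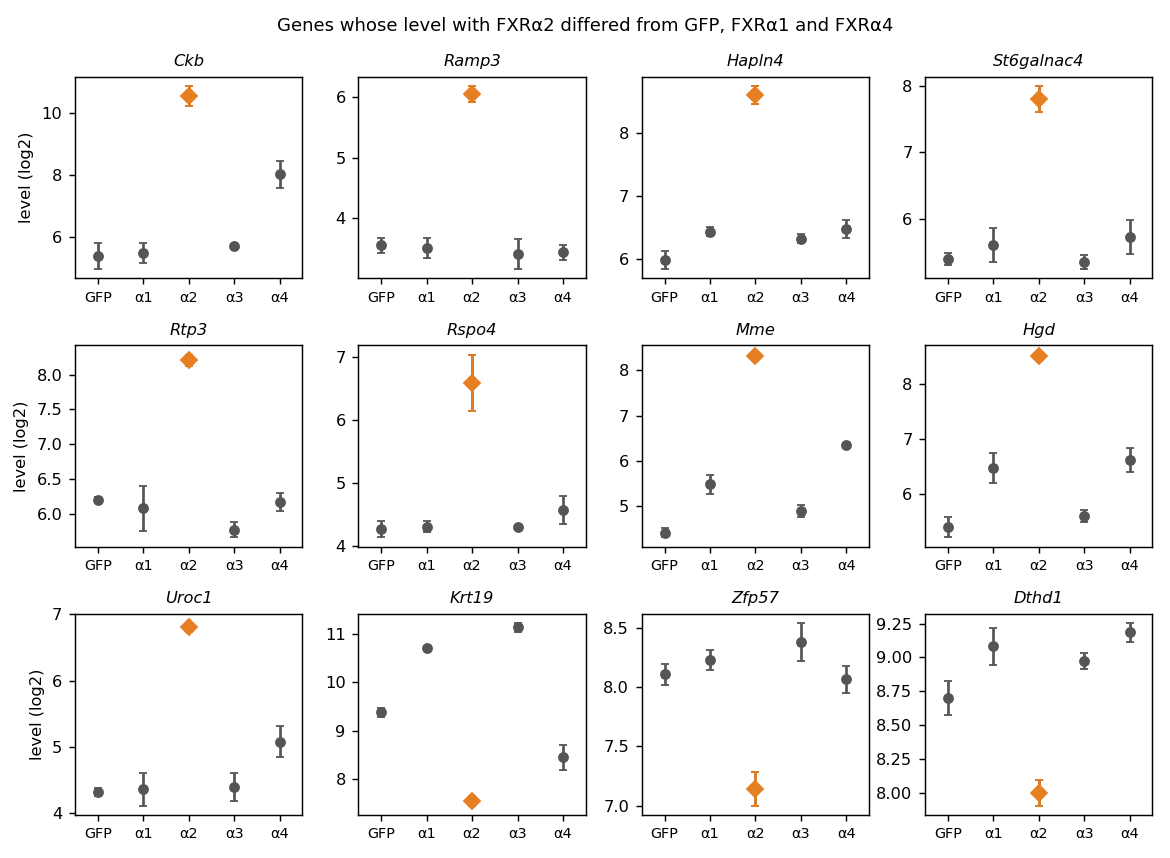
Mean level (log2, y axis) with its SD (n = 3 arrays) in the GFP group and the 4 isoform groups (x axis) for 9 genes highest and 3 genes lowest with FXRα2 among GFP, FXRα1, FXRα2 and FXRα4; FXRα2 is the orange diamond and each panel has its own y range. Ramp3, Hapln4, St6galnac4, Rtp3 and Rspo4 lie closer to the GFP mean than to the FXRα2 mean with every other isoform. Ckb, Mme, Hgd and Uroc1 are also raised, to a lesser degree, with FXRα4, and Hgd with FXRα1.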

How the data were processed

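The authors deposited 1 table of log2 values for 15 Affymetrix mouse arrays, 3 in each of 5 groups. The log base was inferred from the range of values, 1.93 to 13.8, and the submitters' processing notes name Affymetrix Expression Console 1.1 and PLIER. No background correction or normalization step is given in the sources used here. Probe sets with 1 annotated symbol were kept (21218 of 35556), and each gene took the probe set of highest mean.

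All 15 arrays entered 1 fit of group means in limma 3.58.1 (lmFit, eBayes with trend, R 4.3.3), with Benjamini-Hochberg adjustment over 18820 genes and a threshold of 0.05. Errors are SE. On simulated data of this size 78 of 100 genes changed by 0.5 and 99 of 100 changed by 1 were recovered, with 3 false calls. The simulation drew independent noise for each gene and array, shifted no whole array and changed far fewer genes than were called here. It does not give the error rate of the real calls. Array number limits the precision.

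The genes named were the 8 largest changes and the 4 brightest not passed of each of 43 lists, the 30 largest changes each way, and the 15 largest each way among the 1882 brightest genes and among genes apart from GFP, FXRα1 and FXRα4. Exceptions are marked. Members and lists were chosen with earlier results of these data known. Same-numbered arrays were not treated as pairs. The alternatives covered scaling, filters, variance model, probe sets, a fold minimum, a replicate block and single arrays left out.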

Additional observations from a re-analysis of the deposited data

How the results depend on the processing

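Centring each array on its median moved the counts to 13162 genes against GFP (1889 higher and 11273 lower) and, against FXRα1, to 6204 lower. A fold minimum of 1.5 in the test left 797 genes against GFP (652 higher and 145 lower), 538 against FXRα1 (418 and 120) and 222 against FXRα4 (157 and 65). Of 214 named genes 68 no longer passed against GFP with that fold minimum, and they are not marked in the text. The cause of the shift under median centring was not tested. Without 1 array at a time, between 5592 and 5941 genes passed against GFP, 5055 to 5861 against FXRα1 and 3610 to 4256 against FXRα4. All other settings run kept these counts within 1.5 times. A filter to the genes brighter than the median gene tests fewer members, and it left 2 falls of interferon genes, 1 of lipoprotein genes, 1 of lipases and 3 rises of adipocyte markers.

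Of the named genes, median centring turned the sign of Abcc3 (-0.148), Alb (-0.192), Apoe (-0.183), Cebpb (-0.219) and Krt18 (-0.207), none of which passed on the deposited values. With that setting Cdkn1a (-0.284), Hspa5 (-0.28), Krt8 (-0.237) and Insr (-0.232) also passed.

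Same-numbered FXRα2 and GFP arrays deviated together weakly, with correlations of 0.0804, 0.206 and 0.167, and 3 of 3 FXRα2 arrays correlated best with their own number, a hint from the data and not from the design. A fit with the replicate number as a block called 7133 genes against GFP (3594 higher and 3539 lower), 6570 against FXRα1 and 5196 against FXRα4. The block raised the falls among cytochrome P450 and conjugation genes from 4 to 7, and Rxra passed with it (0.168, adjusted p = 0.0162), the 1 named gene whose call it changed. Signals near the bottom of the scale limit what can be read from dim genes, since the deposited table carries no background measure.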
